A study of Drosophila melanogaster with 2 samples.

Results

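The genes described here are the 5 members of the LIM-homeodomain family of transcription factors ap, tup, Lim1, Lim3 and Awh, set against 13945 protein-coding genes in the annotation of Drosophila melanogaster. They were taken by symbol, and a summit (the authors' base of highest signal within an enriched region) was given to a gene when it lay in the gene body or within 5 kb either side, a stretch called the window below. The data are chromatin immunoprecipitation with sequencing (ChIP-seq) from whole flies, males and females together, at the white prepupa stage, when the larval cuticle has just become the puparium. Both biological replicates came from the same transgenic strain, esn-GFP, in which espinas (esn) carries green fluorescent protein at its C-terminus, and an antibody against GFP was used. No untagged flies and no other genotype, treatment or stage are among the samples, the age is given as unknown, and the labels do not name the sequences that drive the transgene. With 1 group of 2 replicates there was no contrast to test, so every value below is a description.

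LIM-homeodomain proteins join a pair of zinc-binding LIM domains, which bind other proteins, to a homeodomain, which binds DNA at sites with a TAAT core. Their activity depends on the cofactor Chip (Chi), which bridges LIM domains through a dimer, and on Ssdp, which binds Chip, while the LIM-only protein of Beadex (Bx) competes for Chip. In the fly, apterous (ap) specifies the dorsal compartment of the wing and neuropeptide neurons, tailup (tup, the fly Islet gene) acts in heart, notum and motor neurons, Lim1 in the antenna, the distal leg and the brain, Lim3 together with tup in motor neurons, and Arrowhead (Awh) in the abdominal histoblasts and the imaginal cells of the salivary gland. Espinas is also a LIM-domain protein, of the Prickle family, and has no homeodomain. Peak lists hold no RNA levels, so the cell types in which these genes are active could not be checked, and in whole animals the cells behind a summit are not known.

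The IDR list, the authors' set of regions that passed a threshold on the irreproducible discovery rate between replicates, held 10936 regions, and it consisted of the strongest regions of the pooled list. The pooled list and the list of each replicate held 30000 regions each, which includes weak ones. Signal is the authors' measure of enrichment per region, its scale is not stated, and it was compared only within a list. In the IDR list the signal ranged between 164 and 8950 with a median of 328. Read counts are not part of the lists, and depth is therefore unknown. The lists hold enriched regions in flies with the tagged protein, and without untagged flies, binding by espinas and other recovery of the same chromatin cannot be told apart. The labels do not say how the animals of each replicate were raised, so differences between replicates may be technical.

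Of the 5 genes, 4 had an IDR summit in the window, against 65.5% of all protein-coding genes. Awh and tup each had 5 IDR summits, Lim1 had 3, ap had 1 and Lim3 had 0. The share of 4 in 5 rests on 5 genes with long windows (median 31.8 kb, against 12.2 kb over all genes) and was not read as different from the background. Of the 14 summits, 10 had a signal below the list median. The members' median was 262 against 328 over the list, and the strongest, at 2025, lay beside tup at the start of another gene. Summits at a start of the gene itself, within 500 bases, were found for ap, tup and Awh, which is 3 of 5 against 35.4% of all protein-coding genes. By place, 5 of the 14 summits (35.7%) lay within 500 bases of a protein-coding start, 7 (50%) in introns, 2 (14.3%) between genes and 0 in exons, against 41.9%, 37.4%, 19.1% and 1.64% of the 10918 IDR summits on the chromosome arms.

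**Figure D1:**
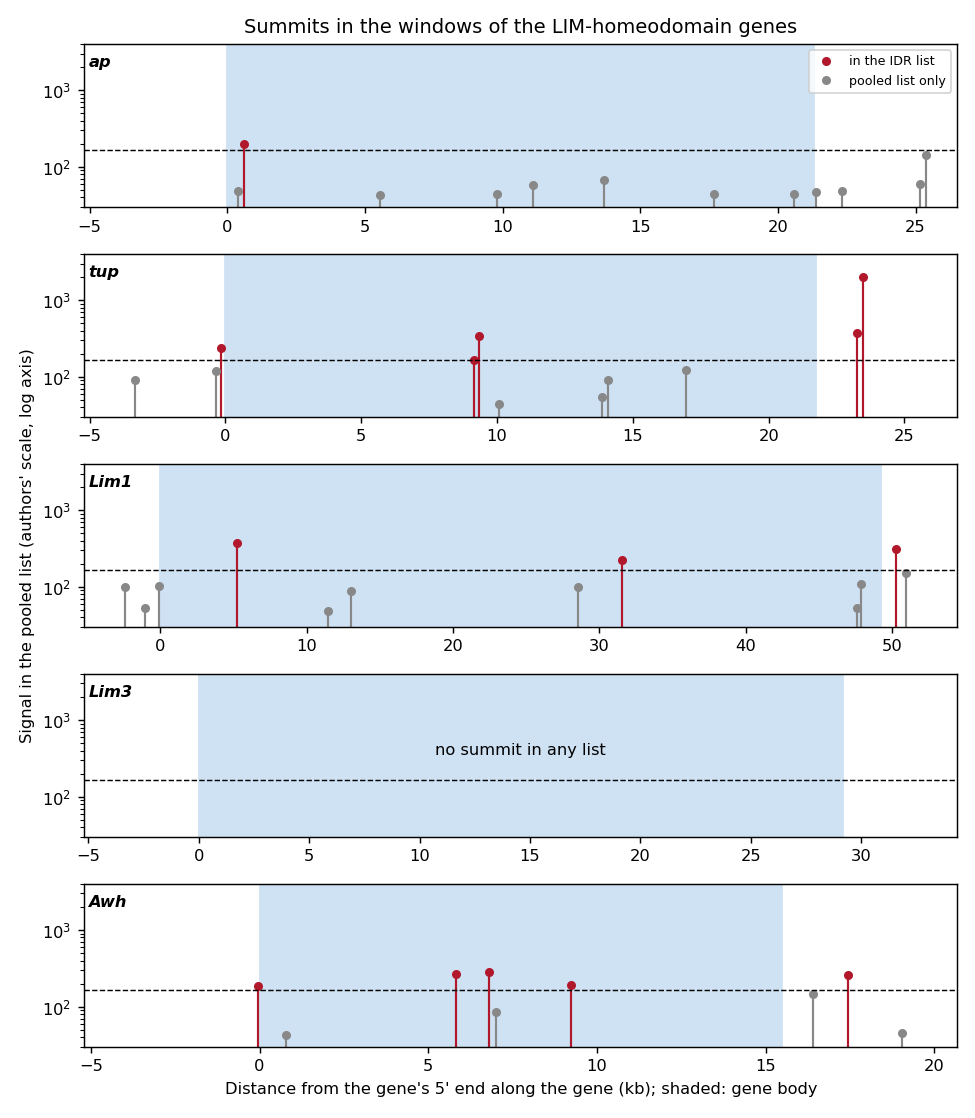
Signal in the pooled list (vertical, log axis, the authors' scale) of every pooled summit in the window of each gene, by distance from the gene's 5′ end in kb; the gene body is shaded, IDR summits are dark red and the dashed line marks the lowest IDR signal, 164. The tallest stem, 2025, stands beyond the 3′ end of tup. Awh has 5 stems of IDR summits, at 186 to 285, and 4 below the dashed line, and Lim3 has none.

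Awh (FBgn0013751) lies on the plus strand of 3L between 3846206 and 3861692 in the dm6 build, and its 4 annotated transcripts share 1 start. Of its 5 IDR summits, 1 stood 38 bases upstream of the start, 3 in introns and 1 beyond the 3′ end. The summit at the start (3846168) had a signal of 186 in the pooled data, 92.5 in replicate 1 and 94.4 in replicate 2. It was the weakest IDR summit of the gene, yet it was the strongest of the gene in replicate 2, at rank 7660, while its rank in replicate 1 was 12151, outside the strongest 10936. The intronic summits 5822 and 6799 bases into the gene had signals of 268 and 285. These 2 led the gene in replicate 1, at ranks 5812 and 5301, and ranked 10897 and 10722 in replicate 2. The weakest intronic summit, 9238 bases into the gene, had a signal of 190, and its rank was 8948 in replicate 1 and 12724 in replicate 2. The summit 1964 bases past the 3′ end (3863656) had a signal of 257, with Awh as the gene of the nearest protein-coding start and 48 bases outside the non-coding gene lncRNA:CR45379. The order of the summits within the gene thus differed between replicates, and each replicate has a single value per summit. Their sequences are shown for the start, the strongest intronic summit and the downstream summit, because base composition separates the start from the others. Each covers 50 bases either side of the summit, cut where an annotated exon begins. Capitals mark matches, on either strand, to the 12 short motifs named further on.
Awh start, chr3L:3846118-3846205, plus strand: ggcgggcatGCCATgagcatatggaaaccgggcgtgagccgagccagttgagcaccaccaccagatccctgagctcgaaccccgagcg
Awh intron, chr3L:3852955-3853055, plus strand: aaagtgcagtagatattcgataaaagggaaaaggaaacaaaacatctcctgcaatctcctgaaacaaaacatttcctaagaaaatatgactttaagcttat
Awh downstream, chr3L:3863606-3863703, plus strand: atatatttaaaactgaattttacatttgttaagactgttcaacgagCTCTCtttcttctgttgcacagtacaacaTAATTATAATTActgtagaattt
The stretch at the start has 64.8% G+C and holds GCCAT, the core bound by the Polycomb recruiter Pleiohomeotic. The intronic stretch has 31.7% G+C and none of the motifs. The downstream stretch has 26.5% G+C and holds TAATTA, the homeodomain core, as a tandem pair, beside GAGAG, the GAGA factor core, which here reads CTCTC on the plus strand.

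The gene tup (FBgn0003896) lies on the minus strand of 2L between 18859507 and 18881261, and its 3 transcripts share 1 start. Its window held 5 IDR summits in 3 runs of overlapping regions. The strongest, at 18857797, reached a signal of 2025, which was rank 286 of the IDR list, and its ranks by replicate were 258 (replicate 1) and 408 (replicate 2). It lay 1710 bases past the 3′ end of tup and 118 bases upstream of a start of the neighbour CG10602, inside an intron of a longer CG10602 transcript. The same region held a further summit, at 18858001 with a signal of 373, which was also nearest to that start. Without these 2 summits tup kept 3, and its strongest had rank 5192 in place of 286. That summit lay in an intron 9351 bases into the gene (18871910), with a signal of 344 and ranks of 5174 in replicate 1 and 5673 in replicate 2. A region overlapping it had its summit 202 bases away and a signal of 164, rank 10935 of 10936, just inside the threshold. The summit at the start of tup lay 151 bases upstream (18881412), with a signal of 237 and ranks of 7247 in replicate 1 and 8695 in replicate 2. The sequences at the start and in the intron are shown for the same contrast in base composition.
tup start, chr2L:18881362-18881462, plus strand: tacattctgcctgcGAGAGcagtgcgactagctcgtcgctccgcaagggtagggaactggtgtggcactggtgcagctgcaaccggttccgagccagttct
tup intron, chr2L:18871860-18871960, plus strand: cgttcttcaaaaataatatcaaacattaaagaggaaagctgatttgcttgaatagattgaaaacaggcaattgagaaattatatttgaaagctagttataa
CG10602 start, beside tup, chr2L:18857747-18857847, plus strand: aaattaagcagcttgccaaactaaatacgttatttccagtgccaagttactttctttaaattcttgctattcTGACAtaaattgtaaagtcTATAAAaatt
The stretch at the tup start has 60.4% G+C and holds GAGAG. The intronic stretch has 26.7% G+C and no motif of the set. The stretch at CG10602 has 27.7% G+C and holds TATAAA and TGACA, a core bound by the homeodomain protein Homothorax.

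Lim1 (FBgn0026411), on the minus strand of X between 8756539 and 8805804, is the longest of the genes at 49.3 kb and has 2 annotated starts. Its 3 IDR summits all lay away from starts. The strongest, 5238 bases into the gene (8800566), had a signal of 378 and ranked 4701 in replicate 1 and 4914 in replicate 2. The summit 993 bases past the 3′ end (8755546) had a signal of 308, ranking 4899 in replicate 1 and 8701 in replicate 2. The weakest, in an intron 31522 bases into the gene (8774282), had a signal of 223 and ranked 7559 in replicate 1 and 9859 in replicate 2. No summit at the start of Lim1 was in the IDR list. The pooled list had one 105 bases upstream of the 5′ start with a signal of 103, rank 15959. In regions overlapping it, the replicate 1 summit lay 9 bases away, rank 15550, and the replicate 2 summit 278 bases away, rank 18362. At one place both replicates held a region and the pooled list none. Replicate 1 had a summit at 8762411 (rank 8203) and replicate 2 at 8762463 (rank 9023), 52 bases apart in an intron, and the nearest pooled summits lay at 8758164 and 8774282. Such places were few over the arms, 17 among the strongest 10918 regions of replicate 1 (0.156%). The strongest intronic sequence and the one with homeodomain motifs are shown.
Lim1 intron, strongest, chrX:8800516-8800616, plus strand: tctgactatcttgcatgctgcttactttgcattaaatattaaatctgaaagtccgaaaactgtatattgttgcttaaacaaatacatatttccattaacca
Lim1 intron, weakest, chrX:8774232-8774332, plus strand: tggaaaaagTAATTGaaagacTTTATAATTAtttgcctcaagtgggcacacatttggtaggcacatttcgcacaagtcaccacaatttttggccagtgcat
The first has 29.7% G+C and no motif of the set. The second has 38.6% G+C and holds TAATTG, and TATAAA on the opposite strand overlapping TAATTA.

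The gene ap (FBgn0267978) lies on the minus strand of 2R between 5706202 and 5727525 and has 3 annotated starts. It had 1 IDR summit, at 5726921, 89 bases upstream of the middle start, with a signal of 196 and rank 9289. In replicate 1 the signal was 121 and the rank 9532, and in replicate 2 they were 67.4 and 10715, so in both replicates this place lay near the size of the IDR list. A further 11 pooled summits in the window had signals of 43.4 to 143, all below the IDR threshold. The strongest of these, at 143, lay 50 bases from the start of vlc, the gene downstream of ap. In regions overlapping it, the replicate 1 summit lay 28 bases away, with rank 12513. The replicate 2 summit lay 172 bases away, and 28 bases from a weaker pooled summit of signal 59.9. Its rank of 10678 was ahead of the 10715 of the IDR summit of ap in that replicate. On the same arm, ap lies 1359 kb from esn. Sequence of this arm is not shown.

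Lim3 (FBgn0002023), on the minus strand of 2L between 19079256 and 19108427, had no summit in its window in the IDR list, the pooled list or either replicate list. The nearest pooled summits lay 7278 bases beyond its 3′ end (signal 195, nearest start CG10702) and 11948 bases beyond its 5′ end (signal 176, 69 bases from a start of Ddc, the dopa decarboxylase gene). The stretch between them measured 48.4 kb in the pooled data, 48.4 kb in replicate 1 and 48.4 kb in replicate 2. It held 7 whole protein-coding genes, CG10700, Lim3, CG43731, CG17344, amd, CG10561 and Ddc. Among the 29975 distances between neighbouring pooled summits, 390 were at least as long, and the median was 1246 bases. A window free of pooled summits was not rare. At least 1 pooled summit was found in 75.5% of protein-coding genes, and of the 687 genes with a window at least as long as that of Lim3, 129 (18.8%) had none. The window had 43.3% G+C, against 42.2% over the arms, and no undetermined base. With reads not at hand, low enrichment and few mapped reads cannot be told apart there.

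The replicates placed the summits close to each other. The region of each of the 14 IDR summits overlapped a region of both replicate lists, and the 2 summits at CG10602 share 1 region. The replicate's summit lay at most 44 bases away in replicate 1 and at most 36 in replicate 2. Ranks ran between 258 and 12151 in replicate 1 (median 6428.5) and between 408 and 12978 in replicate 2 (median 8698). In 13 of 14 summits the rank was better in replicate 1, the exception being the start of Awh. Over all IDR regions found in both lists, 59.4% ranked better in replicate 1, and over those below the list median 56.8%. Counting a region as found when it overlapped one of the strongest 10918 of a replicate, 13 of 14 were found in replicate 1, 13 in replicate 2 and 12 (85.7%) in both, against 84.3% of all IDR regions and 69.7% of those below the list median, where 10 of the 14 lie. The pair found in 1 replicate only belonged to Awh, its start (missing in replicate 1) and its weakest intronic summit (missing in replicate 2). The weak tup summit at 18872112, rank 12978 in replicate 2, counted as found because its region overlaps the stronger one beside it. The IDR list is built from both replicates, so these values describe it and are no separate check.

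**Figure D2:**
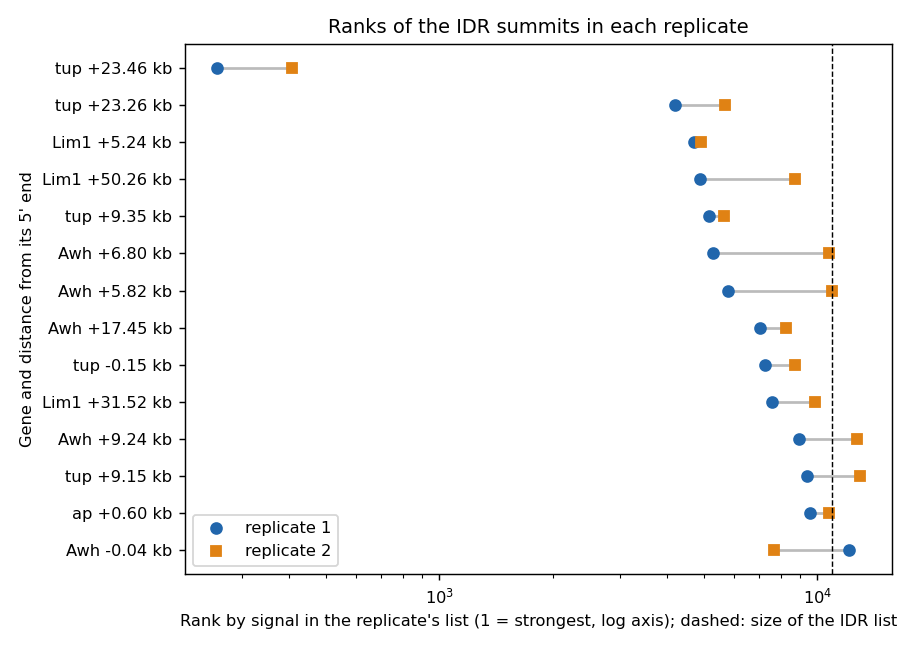
Rank by signal (horizontal, log axis, 1 is the strongest) of each of the 14 IDR summits in replicate 1 (circles) and replicate 2 (squares), named by gene and distance from its 5′ end; the dashed line marks 10936, the size of the IDR list. The summit beside tup ranks 258 and 408, and all others rank between 4211 and 12978.

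Base composition divided the members' own starts from their other summits. Taken over 50 bases either side, G+C content was 64.4% at the start of ap, 64.4% at that of Awh and 60.4% at that of tup. At the other 11 summits it ranged between 16.8% and 48.5% (mean 30.8% ± 7.83, SD over summits). The groups did not overlap. The 11 include the summits at the CG10602 start, at 27.7% and 16.8%, which are promoter summits in the list values that follow. Counted that way, the members' 5 promoter summits ran between 16.8% and 64.4% and overlapped the rest. The 9 summits away from promoters had a mean of 32.7% ± 6.86 (SD over summits). Across the IDR list the mean was 37.2% ± 10.4 at 4577 promoter summits and 32.7% ± 8.45 at 6341 other summits (SD over summits), and 67 promoter summits (1.46%) reached 60%. This measure at starts was chosen after its values had been seen, and the number of summits is small. The starts themselves differed in composition. Within 100 bases of the starts that had an IDR summit, G+C was 62.7% in Awh, 58.2% in tup and 55.7% at the middle start of ap. Among the starts without one it was 59.2% at the 5′ start of Lim1 and 33.8% at its other start, 51.2% and 38.3% at the other starts of ap, and between 30.4% and 54.7% at the 6 starts of Lim3. Over 19607 protein-coding starts the mean was 42.3% ± 7.78 (SD over starts). The 5′ start of Lim1, which had no IDR summit, was thus about as G+C-rich as that of tup, which had one, while the other starts without a summit were less G+C-rich than the 3 with one.

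**Figure D3:**
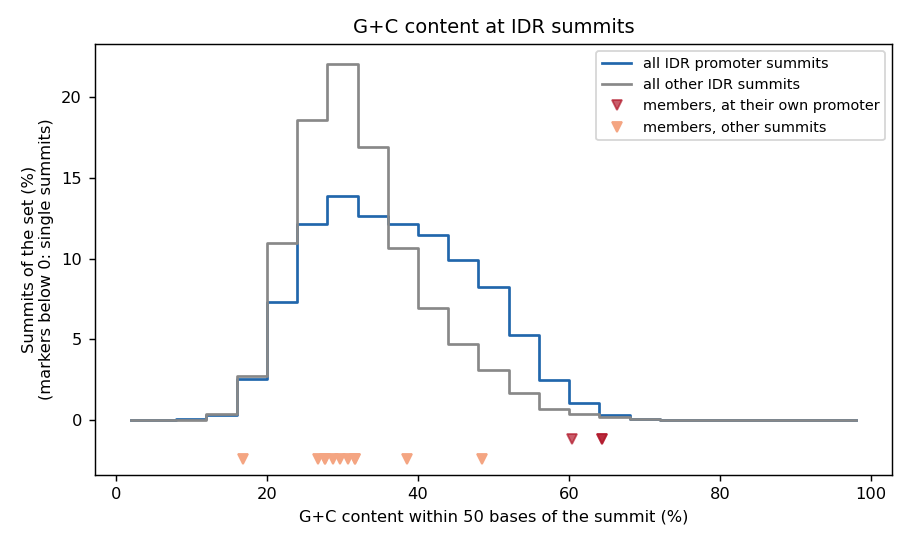
Percent G+C over 50 bases either side of each summit (horizontal, %) against the share of summits (vertical, %) for all IDR promoter summits and all other IDR summits; triangles below 0 mark single summits of the members. The 3 summits at the members' own starts lie at 60.4 to 64.4%, in the upper tail of both curves. The other 11, including those at the start of CG10602, lie at 48.5% or below.

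The 12 motifs were the homeodomain cores TAATTA and TAATTG, the GAGA factor core GAGAG, the Pleiohomeotic core GCCAT, the promoter elements TATCGATA (bound by DREF), GGTCACAC (known as Motif 1) and TATAAA (the TATA box), the GC box GGGCGG, the E-box CACGTG, the Zelda core CAGGTA, the Homothorax core TGACA and the short run CACCC, each sought on both strands with overlaps allowed. Within 50 bases, TAATTA was present at 2 of 14 summits, in Lim1 and downstream of Awh, against 9.25% of all IDR summits. TAATTG was present at 2 of 14 against 10.5%, GAGAG at 2 against 10.2%, GCCAT at 2 against 13.3%, TATAAA at 3 against 21.3%, TGACA at 2 against 15.05% and GGGCGG at 1, the start of ap, against 1.502%. The remaining motifs were at 0 of 14. Their shares over all IDR summits were 2.11% for the DREF element, 1.38% for Motif 1, 0.742% for the E-box, 1.68% for the Zelda core and 6.95% for the short run CACCC. With 14 windows, shares of this size cannot be told apart, and a match is only a run of letters. No motif of the set was found at 6 of the 14 summits, and the same share over all IDR summits is not given here.

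Some of the summits are pairs at a nearly fixed distance. In the windows, 8 pairs of neighbouring pooled summits stood within 300 bases of each other, 4 in tup, 2 in ap, 1 in Lim1 and 1 in Awh, and they were 199 to 215 bases apart. In the whole pooled list there were 6126 such pairs. Their shortest distance was 199 bases, their median 206, and 74.3% lay between 190 and 220 bases. No pair was closer than 199 bases in the pooled list, and whether the summits of such a pair are separate places was not tested. With 1 summit per run of overlapping regions, the count was 12 in place of 14.

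Against all protein-coding genes, Awh and tup stood high by count and less so by density. More IDR summits than their 5 were found in 5.27% of genes, more than the 3 of Lim1 in 16.5% and more than the 1 of ap in 46.2%. The 0 of Lim3 was shared by 34.5% of genes. Per 10 kb of window the values were 1.96 in Awh, 1.57 in tup, 0.506 in Lim1, 0.319 in ap and 0 in Lim3, against a median of 0.878 over all genes. A denser window was found in 22.7% of genes for Awh, 34.8% for tup, 63.0% for Lim1 and 64.6% for ap. Awh and tup do not differ in count, and leaving out the 2 summits at CG10602 puts tup at 3, level with Lim1. The strongest signal among the 4 genes with a summit had a median of 331, against 572 over all genes with one. For tup the value in this median was the 2025 at CG10602. By count, strongest signal and window length together, the genes nearest to Awh were Myo31DF, an unconventional myosin (5 summits, strongest 300, distance 0.0817 in units of SD over genes), and Ogdh (5, 300, distance 0.155). Nearest to ap were Acox3 (1 summit, 195, distance 0.0250) and ktub (1, 187, distance 0.0639). Nearest to tup were pico (5, 1579, distance 0.313) and CheB42c (5, 2131, distance 0.342), and to Lim1 ths, a fibroblast growth factor (3, 310, distance 0.381), and CG31221 (3, 552, distance 0.482). For tup, the count and strongest signal used here include the 2 summits at CG10602, without which they are 3 and 344. Nearest genes for those lower values were not sought. The likeness of each gene rests on 1 list made from 2 libraries, and Lim3, with no summit, has no such neighbour.

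**Figure D4:**
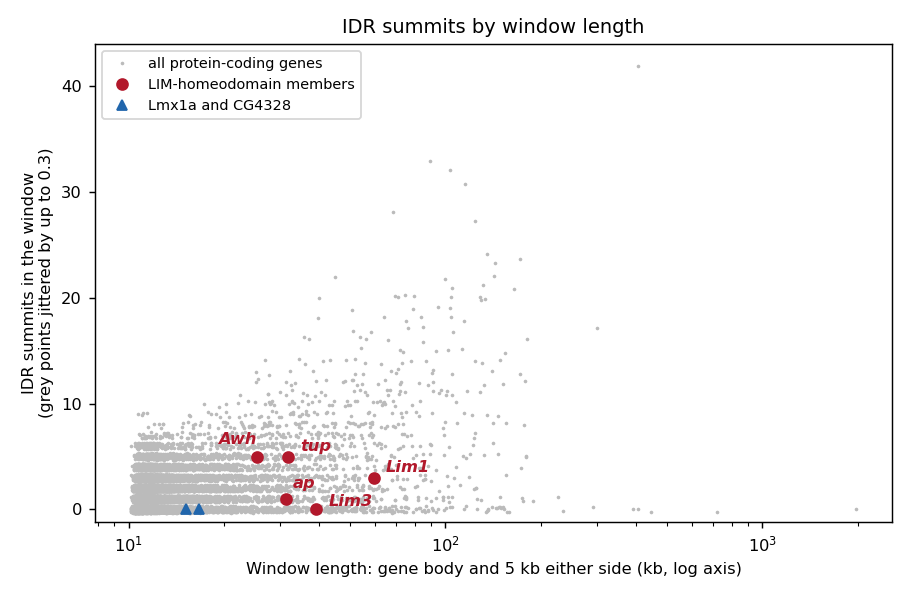
IDR summits in the window (vertical) against window length (horizontal, kb, log axis) for 13945 protein-coding genes (grey), the 5 members (dark red) and the LIM-homeodomain genes Lmx1a and CG4328 (blue). Awh and tup lie at 5, Lim1 at 3, ap at 1 and Lim3, Lmx1a and CG4328 at 0.

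The remaining LIM-homeodomain genes of the fly, Lmx1a and CG4328, lie on 3L and had 0 summits in the pooled and IDR lists. With Lim3, that made 3 members of the wider family without a pooled summit. Their windows, 16.7 kb and 15.2 kb, are shorter than those of the members, and 24.5% of all genes had none. All 3 genes for the shared partners had IDR summits, against 65.5% of all genes. Bx had 13 in a window of 67.4 kb with a strongest signal of 858, Ssdp had 4 in 17.1 kb with 680 and Chi had 1 in 12.4 kb with 360. Per 10 kb this was 1.93 in Bx, 2.34 in Ssdp and 0.806 in Chi, against a median of 0.878 over all genes. A summit at a start was found in 1 of the 3, Bx, against 35.4% of all genes.

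Among genes that act with the members, those of the dorsal wing all had IDR summits (7 of 7, median 6 per gene), led by fng, a glycosyltransferase of Notch and a target of Apterous (12 summits, strongest 1789), Dr (2, strongest 1141) and Ser, a Notch ligand (6, strongest 848). Genes of the notum and heart had 6 of 6 (median 3), led by ush, a GATA cofactor (20, strongest 8950), the heart homeodomain gene tin (2, 1646) and the Iroquois gene caup (2, 583). Genes of the distal leg and antenna had 6 of 8 (median 1.5), led by bab1 (11, 2153), al, which acts with Lim1 at the leg tip (1, 536) and Dll (3, 442), with B-H1 and B-H2 at 0. Neuropeptide neuron factors had 5 of 6 (median 2), led by grh (13, 2239), sqz (3, 840) and kn (5, 628), with cas at 0. Motor neuron factors had 3 of 5 (median 1), led by zfh1 (6, 978), vvl (2, 262) and exex (1, 218), with eve and HGTX at 0 in the IDR list and in the pooled list. The median over all genes was 1 and the share with a summit 65.5%, and the shares in these lists of 5 to 8 genes ran between 60% and 100%. The windows of these lists are longer, with medians of 14.8 to 26.2 kb against 12.2 kb over all genes. Per 10 kb the median was 1.36 in the notum and heart list, 1.06 in the dorsal wing list, 0.852 in the neuropeptide list, 0.748 in the motor neuron list and 0.598 in the distal leg list, against 0.878 over all genes. Thus 3 of the 5 lists lay below all genes by density. No test was made. A window can hold the summit of a neighbour, as at tup.

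Of the 8 Hox genes, the homeodomain genes of the body axis, 5 (62.5%) had an IDR summit, against 65.5% of all genes. Their median was 1.5 summits, in windows with a median of 40.6 kb against 12.2 kb over all genes. Antp (15, strongest 1294), Abd-B (2, 603) and Ubx (4, 474) led, and pb, Dfd and abd-A were at 0. Per 10 kb the median was 0.506 over the LIM-homeodomain genes, 0.317 over the Hox genes and 0.878 over all genes. Of 14 genes for LIM-domain proteins of the cytoskeleton, 10 (71.4%) had an IDR summit, in windows with a median of 20.4 kb. Their median was 3 summits, and 1.15 per 10 kb. The list was led by LIMK1 (7, strongest 2704), Mlp84B (3, 2347) and Pax, the fly paxillin (6, 1849). Zasp66, Zasp67, Mlp60A and Unc-115b were at 0. The median of the strongest signal, over genes with a summit, was 331 in the LIM-homeodomain genes and 474 in the Hox genes. It was 826 in the cytoskeletal genes and 572 over all genes. The 331 counts, for tup, the summit at CG10602. The sets are small and the differences were not tested.

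**Figure D5:**
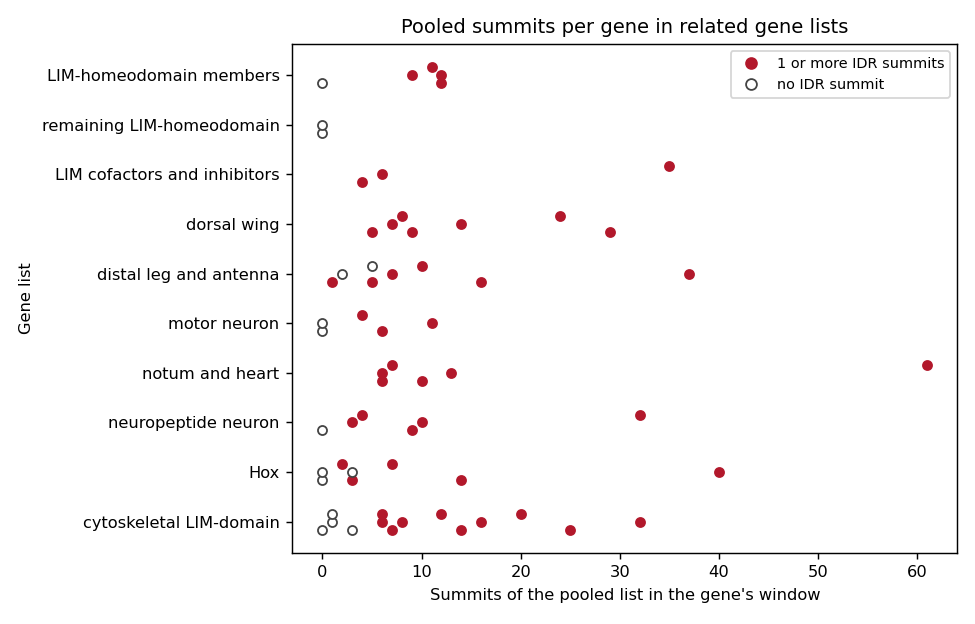
Summits of the pooled list in each gene's window (horizontal) by gene list (vertical); filled points are genes with 1 or more IDR summits and open points genes with none. The members stand at 0 (Lim3) and between 9 (Awh) and 12 (ap and Lim1), and the remaining LIM-homeodomain genes stand at 0.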

How the data were processed

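Enriched regions from ChIP-seq of 2 replicates of 1 group were read from the deposited lists on dm6. Per the deposited file descriptions, the authors called regions in each replicate and in both pooled, with a control, and the IDR list was derived from these lists. The signal value of each region is the authors' own, as deposited, and the sources used here give neither its scale nor the caller and threshold. The lists on dm3 and the control libraries were not used here.

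Summits were placed 1-based and assigned to genes of Ensembl release 115 (BDGP6.54) on the 6 chromosome arms, which left 10918 IDR regions. Gene coordinates of the 5 members equal those of the RefSeq Release 6 genome that gave the sequences. Promoter means within 500 bases of a protein-coding start. CG32105 was matched as Lmx1a through RefSeq synonyms. Calculations used Python 3.11.15, numpy 2.4.6, pandas 2.3.3 and matplotlib 3.10.9, and the assignment was checked on simulated summits.

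The members and gene lists were chosen with earlier results of these data known. The genes named were the members, the 3 genes per list with the strongest summit, those with none and the 2 nearest each member by count, strongest signal and window length. Windows, lists, promoter distances, overlap rules and motif windows were varied. Leaving out summits nearest another gene's start, the G+C comparison and the summit spacing were added after seeing the data. No test was made, since 1 group allows no contrast.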

Additional observations from a re-analysis of the deposited data

How the results depend on the processing

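With the strongest regions of 1 replicate in place of the IDR list, 4 members had a summit in either replicate, the summits numbered 14 to 15, the members with one at a start 2 to 3 and the share at promoters 26.7 to 42.9%. In the strongest 5459 IDR regions, 2 members kept a summit (tup and Lim1), with 4 summits, 0 members had one at their own start, and 50% of the summits, those at CG10602, lay at promoters. The whole pooled list gave 44 summits, with 22.7% at promoters, and gene bodies alone gave 8 summits. With 10 kb either side, Lim3 had 1 summit and all 5 members had one. The summit gained by Lim3 lay 7278 bases beyond its 3′ end, and its nearest start was that of CG10702. For these counts of members, the shares of all genes under the same changed settings are not given here. The share of regions found in both replicates was 78.6% for summits within 100 bases, 83.3% for 1 summit per run, 100% with all replicate regions, 100% among the strongest 5459 IDR regions and 21.4% with the strongest 5459 regions of each replicate. Fewer or more regions change these values by construction. Of the alternatives for each member's summit count, 29 stayed within 1.5 times or at 0, and 16 did not. The 29 include Lim3, at 0 in every setting but 10 kb either side. Of the alternatives for the rank of a member's strongest summit, 30 stayed and 4 did not. Of those for motif counts, 11 stayed and 13 did not, and most that stayed were 0 in both settings. Depth is unknown, so a window with no summit gives no limit on enrichment. No paired analysis was possible because there is a single group.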
